A study of Mus musculus with 6 samples.

Results

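The genes described here are 10 members of the p53 programme: Trp53, Mdm2, Trp53inp1, Gadd45a, Ccng1, Sesn1, Sesn2, Btg2, Plk2 and Perp. Among them are genes that restrain growth, limit damage or feed back on p53. Further p53 targets, among them a list of cell death genes, are given below separately. This division does not say that no member acts in cell death. The members were taken by gene symbol from the deposited table of unnormalized values. It gave 18 probes for the 10 genes, of 25697 probes for 17830 named genes on the array. Of the 18 member probes, 15 from 9 genes passed the filter on dim probes (a detection p-value under 0.05 on at least 3 of the 6 arrays), as did 12136 probes from 8789 named genes overall. The 3 that did not pass were the only probe for Btg2 and the dimmer of 2 probes each for Sesn1 and Sesn2.

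RNA came from STHdh cells, a cell line of mouse striatal origin, in 2 groups of 3 samples: cells transfected with Foxp1, a forkhead transcription factor, and control cells that the genotype field calls wild-type while their titles carry the plasmid name PcDNA. Each sample was hybridised to 1 Illumina beadchip. The labels give neither the promoter driving Foxp1, the time after transfection, the share of cells that took up the plasmid nor whether replicates were separate cultures, so a p-value here reflects the spread of these 6 samples, part or all of which may be technical. As background, STHdh lines were immortalized with a temperature-sensitive large T antigen of SV40, a protein that binds p53, and both groups share that origin.

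p53, encoded by Trp53, is a transcription factor that is held at low protein levels by the ubiquitin ligase Mdm2 and is stabilised when DNA is damaged or ribosomes, nutrients or oncogenes put a cell under stress. It then raises a set of target genes, and Mdm2 is itself one of them, which closes a feedback loop. Control of p53 lies largely in the stability and modification of the protein, which these arrays do not measure. Several targets are also reached by other routes: Sesn2 and Gadd45a by the integrated stress response, and Btg2 and Plk2 as early genes of growth factor and neuronal stimulation.

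Promoter windows from RefSeq (GRCm38.p6, 250 bases before to 50 after a gene start) were found for 8 of the 10 members, in 9 windows because Sesn1 has 2, and not for Trp53inp1 or Perp. They are shown because p53 acts on many of its targets through paired decamers near the gene start. A pair of adjacent p53 decamers, allowing 3 mismatches outside the C and G of each core, was present in 1.38% of 32851 mouse windows. Among the members it was found for Ccng1 (1 mismatch, first base at -195 from the start), Trp53 (3 mismatches, -75) and the second window of Sesn1 (3 mismatches, -173), in capitals below. Mdm2, whose known p53 sites lie in its first intron, is given beside them and holds no match in this window. Each line gives the 250 bases upstream of the start, 5′ to 3′ on the gene's strand.

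Ccng1, chr11:40755287-40755536, minus strand: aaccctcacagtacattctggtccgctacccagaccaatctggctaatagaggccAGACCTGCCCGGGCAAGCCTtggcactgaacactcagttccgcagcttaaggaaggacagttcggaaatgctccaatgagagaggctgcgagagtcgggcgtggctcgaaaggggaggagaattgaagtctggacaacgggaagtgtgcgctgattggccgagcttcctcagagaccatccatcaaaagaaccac
Trp53, chr11:69580109-69580358, plus strand: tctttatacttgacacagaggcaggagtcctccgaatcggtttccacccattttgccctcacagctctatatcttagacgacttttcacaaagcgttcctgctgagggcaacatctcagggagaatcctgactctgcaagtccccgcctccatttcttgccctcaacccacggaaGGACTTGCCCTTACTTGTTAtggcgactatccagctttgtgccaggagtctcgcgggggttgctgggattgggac
Sesn1, second window, chr10:41887189-41887438, plus strand: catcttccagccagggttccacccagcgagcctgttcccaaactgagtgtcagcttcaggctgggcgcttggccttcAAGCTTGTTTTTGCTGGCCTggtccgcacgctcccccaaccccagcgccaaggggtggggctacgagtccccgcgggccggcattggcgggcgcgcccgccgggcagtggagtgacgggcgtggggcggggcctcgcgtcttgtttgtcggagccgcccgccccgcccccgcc
Mdm2, chr10:117710759-117711008, minus strand: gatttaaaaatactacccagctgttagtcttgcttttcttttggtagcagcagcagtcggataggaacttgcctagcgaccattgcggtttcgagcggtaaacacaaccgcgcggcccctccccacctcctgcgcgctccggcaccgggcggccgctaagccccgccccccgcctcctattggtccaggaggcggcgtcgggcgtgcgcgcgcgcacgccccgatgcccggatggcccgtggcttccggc

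The letters CATG, the core of a p53 half-site, occurred once each in the Gadd45a and Sesn2 windows and in 61.1% of all windows. Neither TGANTCA, an AP-1 site (7.81% of all windows), nor TGATGNAA, a core of sites bound by ATF4 and CHOP (3.97%), occurred in any of the 9 member windows, with both strands searched. These matches describe letters in a window and were not set against binding data.

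Mdm2, Trp53inp1, Gadd45a and Sesn2 were higher in Foxp1-transfected cells, by 1.64-fold to 2.29-fold on the probe with the highest mean level for each gene, and no member passed the test in the lower direction. Trp53, the gene for p53 itself, had almost equal levels in both groups (difference 0.01 on the log2 scale). Ccng1 passed on 2 of its 3 probes but not on its brightest. Sesn1, Plk2 and Perp did not pass, and Btg2 was not detected on any array. All differences are Foxp1-transfected minus control on the normalized log2 scale with n = 3 arrays a group, and a probe or gene is said to have risen or fallen where limma's Benjamini-Hochberg adjusted p over all 12136 kept probes was under 0.05.

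The members were chosen with earlier results of these data known, so the counts beside shares of all genes are description only. By 1 probe a gene, 4 of 9 kept members rose and 0 fell, where 1.58% of the 8789 kept genes rose and 1.15% fell. By probes, 9 of 15 kept member probes rose, from 5 genes, and 0 fell, where 1.55% of all kept probes rose and 1.06% fell. At an unadjusted p under 0.05, 5 members were higher and 0 lower, where 8.27% of all kept genes were higher and 10.2% lower. The members' median difference was 0.38 and that of all kept genes 0.00. The 3 normalized Foxp1 values lay above the 3 control values for 5 of the 9 members, where 11.7% of all kept genes did so, and below them for 1, Sesn1, where 14.1% did. Over probes they lay above for 10 of 15 member probes (11.4% of all kept probes) and below for 1 (13.4%).

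**Figure D1:**
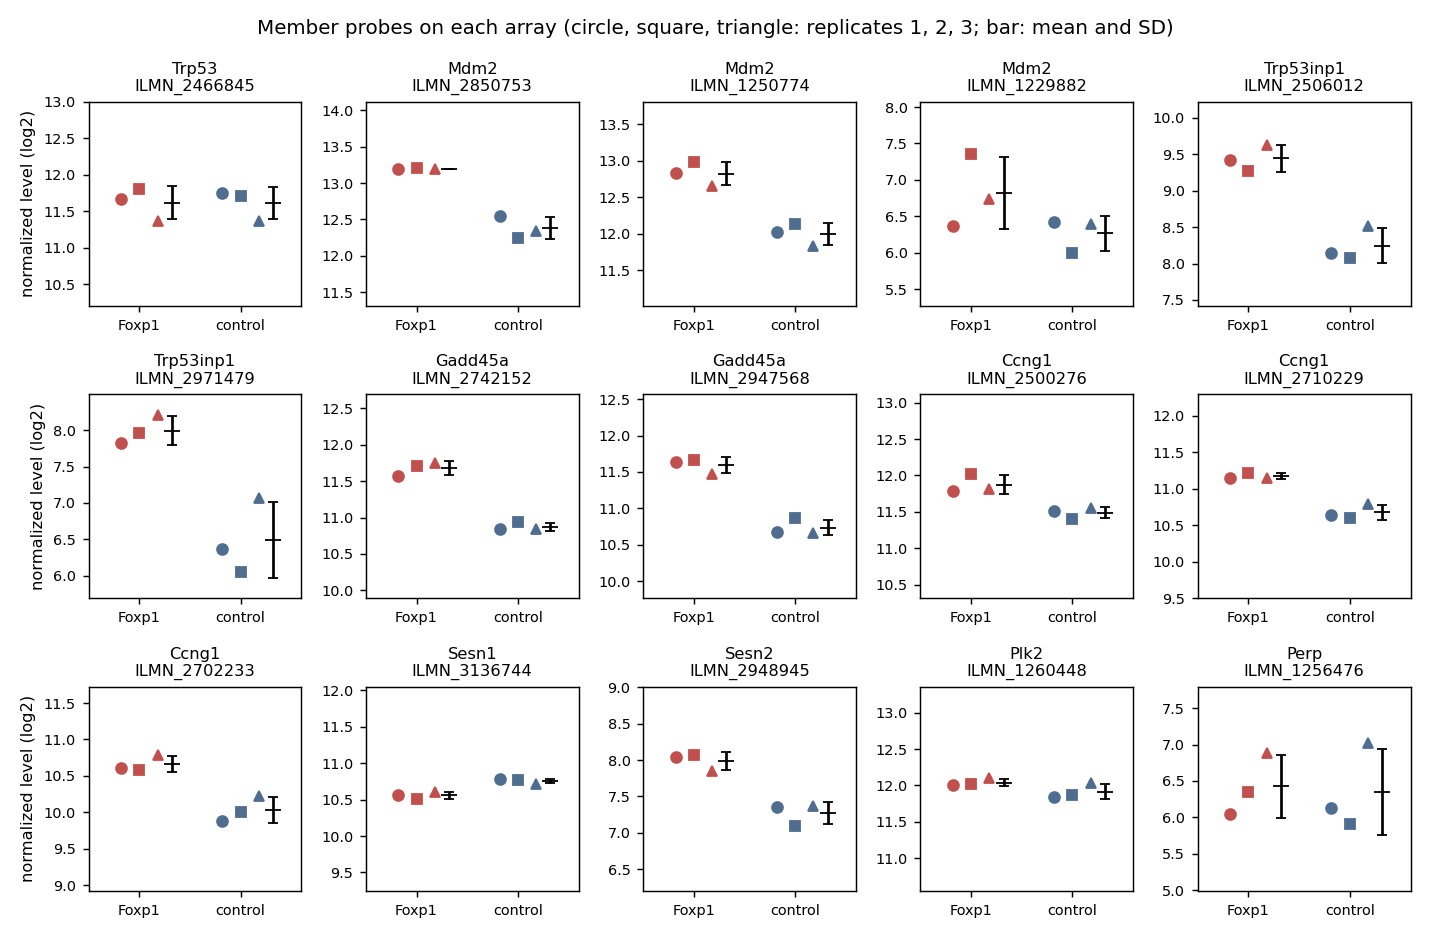
Normalized log2 level of each of the 15 kept member probes, one panel a probe, with Foxp1-transfected arrays on the left and control arrays on the right of each panel, symbols for replicates 1 to 3, and the mean with SD beside them. Every panel spans the same number of log2 units, and the groups lie apart for 10 probes with Foxp1 above and for the Sesn1 probe with Foxp1 below.

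In both groups array 3 was the brightest before normalization, with a median probe intensity of 64.5 on Foxp1 array 3 and 77.0 on control array 3, against 36.6 and 38.3 on Foxp1 arrays 1 and 2 and 29.2 and 31.8 on control arrays 1 and 2. Raw intensities therefore have to be read within a replicate number. Of the 9 member probes that rose, 3 had all Foxp1 intensities above all control intensities before normalization and 6 overlapped, through control array 3. All 9 were higher in Foxp1 cells within each of the 3 replicate numbers after normalization. Without both replicate 3 arrays the same 4 genes and 9 probes passed. Foxp1 itself had intensities of 4967, 4979 and 5250 in transfected cells, against 688, 621 and 1048 in controls.

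Mdm2, the ligase that marks p53 for degradation, was among the brightest members. Its first probe (ILMN_2850753) had intensities of 8816, 8281 and 11766 on Foxp1 arrays 1 to 3, against 4416, 3710 and 7536 on control arrays 1 to 3. Each transfected array was brighter than any control array even before normalization. The normalized levels were 13.19 ± 0.01 in Foxp1 cells and 12.38 ± 0.15 in controls (SD, n = 3 each), a difference of 0.81 ± 0.10 (SE), or 1.75-fold (limma adjusted p = 0.00934).

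The second Mdm2 probe (ILMN_1250774) had intensities of 6670, 6977 and 8261 in Foxp1 cells, against 3064, 3365 and 5385 in controls. It gave a difference of 0.83 ± 0.12 (limma adjusted p = 0.0163), within 0.02 of the first probe. The remaining Mdm2 probe (ILMN_1229882) was dim. It had intensities of 53.7, 123 and 125 in Foxp1 cells, against 45.6, 29.998 and 111 in controls, and was undetected on control array 2. Its groups overlapped and it did not pass (0.55 ± 0.24, limma adjusted p = 0.277). The calls of the bright probes were lost without Foxp1 replicate 1 (limma adjusted p = 0.0723 and 0.0879) or Foxp1 replicate 2 (0.0721 and 0.0992), and that of the second also without control replicate 1 (0.0555).

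Trp53, in contrast to its feedback inhibitor, showed no difference that passed the test. Its single probe (ILMN_2466845) had intensities of 2914, 2956 and 3438 in Foxp1 cells, against 2520, 2538 and 3918 in controls. The Foxp1 intensities lay inside the range of the control intensities, and the normalized groups overlapped. Normalized levels were 11.62 ± 0.23 in Foxp1 cells and 11.61 ± 0.22 in controls, and the difference of 0.01 ± 0.15 (limma adjusted p = 0.992) had a 95% interval of -0.35 to 0.36. Within an array, Mdm2 stood 1.39 to 1.82 log2 units above Trp53 in Foxp1 cells and 0.54 to 0.99 in controls. As these are different probes, only the shift between groups can be read, and the Mdm2 difference exceeded that of Trp53 by 0.81 ± 0.18 (SE). The exact permutation p was 0.1, the smallest that 3 against 3 arrays allow, and 0.125 after adjustment over the 5 gene pairs compared in this way.

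Trp53inp1, a p53-induced nuclear protein that promotes p53 activity and autophagy, had the largest difference among the members. Its brighter probe (ILMN_2506012) had intensities of 583, 496 and 1011 in Foxp1 cells, against 192, 183 and 549 in controls. Control array 3 lay above Foxp1 array 2 before normalization, while after it the groups lay apart. The level was 9.44 ± 0.18 in Foxp1 cells and 8.25 ± 0.24 in controls, a difference of 1.20 ± 0.15, or 2.29-fold (limma adjusted p = 0.0084).

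The dimmer Trp53inp1 probe (ILMN_2971479) had intensities of 177, 192 and 371 in Foxp1 cells, against 43.1, 32.8 and 190 in controls. Control array 2 did not detect it, and control array 3 stood well above the other two controls. Its difference was 1.5003 ± 0.24, or 2.83-fold (limma adjusted p = 0.0223). The difference of the brighter probe minus that of the dimmer was -0.30 ± 0.18 and negative within each replicate number (exact permutation p = 0.2, adjusted 0.6 over 8 probe pairs). With a smallest possible p of 0.1, that test cannot show that probes of a gene act alike. The call of the brighter probe was lost without Foxp1 replicate 1 (0.0609). That of the dimmer probe was kept without control replicate 3 (0.00333) and lost without any 1 of the other arrays, with adjusted p from 0.0729 without control replicate 2 to 0.113 without Foxp1 replicate 2, as it was without a detection filter (0.0668).

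Gadd45a, a DNA damage-inducible protein that binds the PCNA clamp and cyclin-dependent kinase 1, rose on both of its probes. The first (ILMN_2742152) had intensities of 2706, 2779 and 4442 in Foxp1 cells, against 1320, 1458 and 2739 in controls. Levels were 11.67 ± 0.10 in Foxp1 cells and 10.87 ± 0.06 in controls, a difference of 0.80 ± 0.10, or 1.75-fold (limma adjusted p = 0.00679). The second (ILMN_2947568), with intensities of 2845, 2704 and 3707 in Foxp1 cells and 1181, 1371 and 2433 in controls, differed by 0.86 ± 0.10 (limma adjusted p = 0.007645). Both probes lost the call without Foxp1 replicate 2 (0.0684 and 0.0692) and the second also without Foxp1 replicate 1 (0.0687). Within each replicate number the first probe differed by 0.73, 0.77 and 0.91, the narrow spread visible in the plot of differences.

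**Figure D2:**
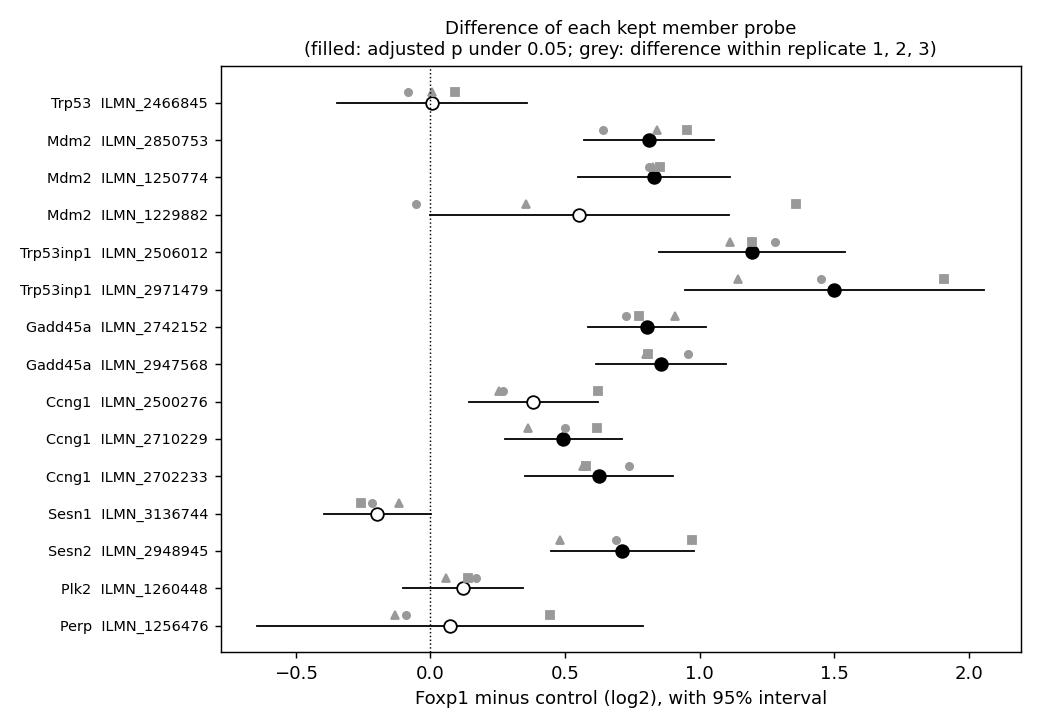
Difference in normalized log2 level, Foxp1-transfected minus control, for each of the 15 kept member probes (circle) with its 95% interval (line), and the differences within replicates 1, 2 and 3 in grey. Filled circles mark the 9 probes with an adjusted p under 0.05, which run from 0.49 for Ccng1 to 1.5003 for Trp53inp1, while the Trp53 probe sits at 0.01.

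Ccng1 encodes cyclin G1, a p53 target that recruits phosphatase 2A to Mdm2. Its 3 probes pointed the same way with unequal calls. The brightest (ILMN_2500276) had intensities of 3134, 3509 and 4652 in Foxp1 cells, against 2127, 2012 and 4426 in controls, and did not pass (0.38 ± 0.10, 1.30-fold, limma adjusted p = 0.112).

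The next Ccng1 probe (ILMN_2710229) had intensities of 1988, 1964 and 2984 in Foxp1 cells, against 1146, 1136 and 2665 in controls, and rose (0.49 ± 0.09, limma adjusted p = 0.0387). The dimmest (ILMN_2702233), with 1362, 1257 and 2301 in Foxp1 cells and 683, 751 and 1796 in controls, rose by 1.54-fold (0.63 ± 0.12, limma adjusted p = 0.0376). On all 3 probes the normalized groups lay apart, and the difference of the brightest probe minus that of the dimmest was -0.24 ± 0.16 (exact permutation p = 0.3 for each of the 3 pairs, where 0.1 is the smallest possible). Both calls held without control replicate 3 (0.0294 and 0.0224) and were lost without any 1 of the other arrays (highest 0.175 and 0.144), without background correction (0.0503 and 0.0532) and with median scaling (0.0666 and 0.0503), that of the dimmest also without a detection filter (0.0697). With the mean over the 3 probes Ccng1 rose by 0.50 ± 0.09 (limma adjusted p = 0.0273).

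The sestrins, which restrain the growth kinase mTORC1 and limit oxidative damage, were each read from 1 kept probe, and Sesn2 passed the test while Sesn1 did not. Sesn2 (ILMN_2948945) had intensities of 210, 209 and 286 in Foxp1 cells, against 103, 86.0 and 237 in controls. After normalization the groups lay apart, at 7.98 ± 0.12 in Foxp1 cells and 7.27 ± 0.15 in controls, and Sesn2 rose by 0.71 ± 0.11, or 1.64-fold (limma adjusted p = 0.0223). The call was lost without Foxp1 replicate 1 (0.110) or 2 (0.131) and without control replicate 1 (0.0588) or 2 (0.0897). Its other probe (ILMN_1219984) was detected on 0 arrays.

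Sesn1 (ILMN_3136744) had intensities of 1319, 1202 and 2027 in Foxp1 cells, against 1264, 1276 and 2516 in controls. The normalized Foxp1 values lay below each control value, at 10.56 ± 0.05 in Foxp1 cells and 10.76 ± 0.03 in controls, but the difference of -0.20 ± 0.09 did not pass (limma adjusted p = 0.285, 95% interval -0.40 to 0.00). Within an array, the Sesn2 minus Sesn1 value was -2.76 to -2.44 in Foxp1 cells and -3.66 to -3.36 in controls. The probes differ, so only the shift between groups can be read, which was 0.91 ± 0.13 (exact permutation p = 0.1, adjusted 0.125).

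Plk2, a polo-like kinase that neurons induce with activity and that p53 can raise, was bright in both groups. Its probe (ILMN_1260448) had intensities of 3694, 3467 and 5659 in Foxp1 cells, against 2674, 2833 and 6122 in controls. The normalized groups overlapped, and the difference was 0.12 ± 0.10 (limma adjusted p = 0.547, 95% interval -0.10 to 0.35). Perp, a membrane protein of desmosomes, was near the detection limit, with intensities of 37.2, 53.7 and 141 in Foxp1 cells, against 33.0, 26.1 and 185 in controls. It was detected on Foxp1 arrays 2 and 3 and on control array 3, and its difference of 0.07 ± 0.31 (limma adjusted p = 0.934, 95% interval -0.64 to 0.79) leaves a wide range of sizes. Btg2, an antiproliferative cofactor of mRNA deadenylation, had intensities of -18.8, -26.3 and -21.7 in Foxp1 cells and -18.6, -22.8 and -51.3 in controls, so its 1 probe gives no level in either group.

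Relatives of the members from the same protein families moved in part. Of 17 named relatives, 12 were kept, of which 3 rose and 0 fell (1.58% and 1.15% of all kept genes). Their median difference was 0.01 beside 0.00 over all genes. At an unadjusted p under 0.05, 4 were higher and 3 lower (8.27% and 10.2% of all kept genes). The 3 that rose were Btg3, an antiproliferative relative of Btg2 (0.83 ± 0.11, limma adjusted p = 0.0114), Plk3, a stress-responsive polo-like kinase (0.78 ± 0.12, 0.0204), and Gadd45g (0.66 ± 0.10, 0.0211). Plk3 and Gadd45g kept their calls without control replicate 3 and lost them without any 1 of the other arrays (highest 0.09998 and 0.118), and Btg3 lost its call without Foxp1 replicate 1 or 2 or control replicate 2 (highest 0.0720).

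Plk3 had intensities of 995, 982 and 1821 in Foxp1 cells, against 556, 464 and 1152 in controls. Set within arrays against this relative, Plk2 differed by 0.66 less (-0.66 ± 0.11, exact permutation p = 0.1, adjusted 0.125). Gadd45b, which did not pass (0.47 ± 0.12, limma adjusted p = 0.106), differed from Gadd45a by 0.34 ± 0.12 for Gadd45a minus Gadd45b (exact permutation p = 0.1, adjusted 0.125). Cyclin G2, encoded by Ccng2, was detected on 2 arrays of each group and had a difference of -0.22 ± 0.23 (limma adjusted p = 0.663). The Ccng1 minus Ccng2 contrast of 0.60 ± 0.31 overlapped between groups (exact permutation p = 0.2). Btg1 had a difference of 0.01 ± 0.10 (limma adjusted p = 0.972). Mdm4, Trp53inp2 and Btg2 had no kept probe, so the remaining 3 of 8 planned pairs gave no value.

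Other p53 targets of cell cycle arrest, DNA repair and metabolism were split. Of 27 named genes 21 were kept, of which 3 rose, 1 fell and 17 did not pass, with a median of 0.04. Among all kept genes 1.58% rose and 1.15% fell. At an unadjusted p under 0.05, 5 genes of this list were higher and 4 lower (8.27% and 10.2% of all kept genes). With the replicate number as a block a further gene rose, the receptor gene Epha2 (0.61, limma adjusted p = 0.0252, and 0.0745 without the block). Cdkn1a, the cyclin-dependent kinase inhibitor p21 and the best known arrest gene of p53, had intensities of 4199, 4477 and 5981 in Foxp1 cells, against 1322, 1556 and 2808 in controls. It rose by 2.52-fold (1.33 ± 0.10, limma adjusted p = 0.00116) and kept its call under each of 16 alternatives. Gdf15, a stress-induced cytokine, had intensities of 73.9, 80.1 and 187 in Foxp1 cells and was detected on no control array, so that only a lower bound holds (at least 1.58-fold, limma adjusted p = 0.00193). It passed the detection filter only through the Foxp1 arrays, and without it 2 genes of this list rose, Cdkn1a and Plk3. Such a bound divides the Foxp1 mean by a control mean in which each array counts at its lowest detected level, or at the probe's own level if that is higher. Plk3 is also counted among the relatives above.

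Ephx1, an epoxide hydrolase named after its values were seen, fell (-0.66 ± 0.12, limma adjusted p = 0.0324). It lost that call without any 1 array other than control replicate 3, without both replicate 3 arrays and without a detection filter (highest 0.1545). Zmat3 (0.04 ± 0.10), Phlda3 (-0.05 ± 0.11) and Ddb2 (-0.31 ± 0.14) did not pass. Their limma adjusted p was 0.863, 0.875 and 0.294, and these 3 were also picked after their values were seen. Of the 21 kept genes of this list, 11 had positive and 10 had negative differences.

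All 12 named p53 targets of cell death were kept, of which 2 rose and 0 fell (1.58% and 1.15% of all kept genes). The list's median was 0.23. Pmaip1, the BH3-only protein Noxa, had intensities of 306, 329 and 538 in Foxp1 cells, against 115, 125 and 226 in controls, and rose by 2.30-fold (limma adjusted p = 0.00193). The death receptor gene Fas rose by 1.79-fold (limma adjusted p = 0.032), a call lost without any 1 array but control replicate 3 and without a detection filter (highest 0.126). At an unadjusted p under 0.05, 5 genes of this list were higher and 0 lower (8.27% and 10.2% of all kept genes).

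Regulators and cofactors of p53 gave 0 calls among 19 kept of 25 named genes with limma, where at an unadjusted p under 0.05 the count was 2 higher and 0 lower (8.27% and 10.2% of all kept genes). The smallest p was that of Sirt1, a deacetylase that acts on p53 (0.45 ± 0.12, limma adjusted p = 0.106). Of 18 named genes of the cell cycle that p53 and p21 lower through the DREAM complex, 15 were kept, and 0 passed with limma (0 higher and 1 lower at an unadjusted p under 0.05, where 8.27% and 10.2% of all kept genes were). Their median was -0.04 and their differences ran from -0.29 for the mitotic kinase gene Plk1 (limma adjusted p = 0.188) to 0.23.

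**Figure D3:**
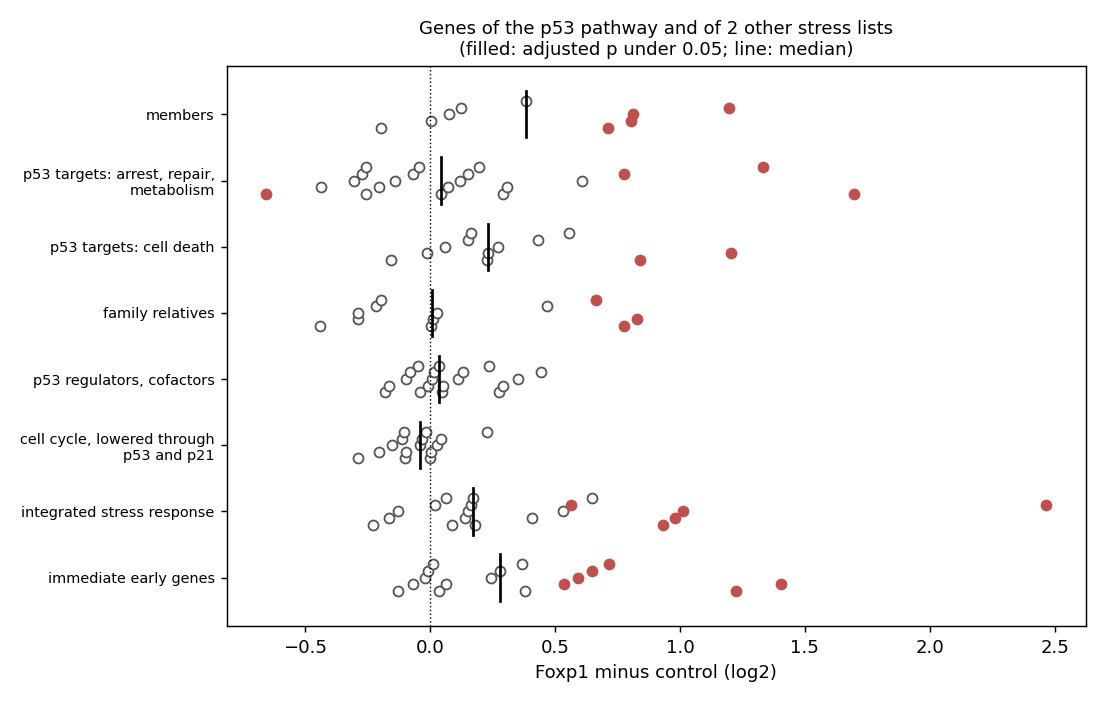
Differences in normalized log2 level, Foxp1-transfected minus control, for the kept genes of 8 sets (rows): the 9 kept members, 5 lists around p53, and the integrated stress response and immediate early genes. Each circle is a gene, filled where the adjusted p was under 0.05, and the vertical line is the median, 0.38 for the members and -0.04 for the cell cycle list.

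Genes of responses that share targets with p53 also moved, where 1.58% of all kept genes rose and 1.15% fell. Of 19 kept genes of the integrated stress response, which reaches Sesn2 and Gadd45a, 5 rose, 0 fell and 14 did not pass (median 0.17). Atf3, a stress-induced transcription factor, had the largest difference (2.47 ± 0.14), with Chac1, which degrades glutathione (0.93 ± 0.08), and Trib3, a pseudokinase (0.98 ± 0.09), next by p (limma adjusted p from 0.000298 to 0.00219). With the replicate block 7 genes of this list rose. Atf4, named after its values were seen, did not pass (0.14 ± 0.09, limma adjusted p = 0.4745). Of 17 kept immediate early genes, 6 rose and 0 fell (median 0.28), led by Fos (1.4039 ± 0.13), Arc (0.72 ± 0.10) and Fosb (1.22 ± 0.17), with limma adjusted p from 0.00219 to 0.0108. Fos kept its call under each of 16 alternatives. Arc lost its call without Foxp1 replicate 1 or 2 or control replicate 2 (highest limma adjusted p 0.07925). Fosb lost its call without Foxp1 replicate 1 or 2 (highest 0.0752). At an unadjusted p under 0.05, 8 and 9 genes of these lists were higher and 0 lower (8.27% and 10.2% of all kept genes). The part of these responses in the members' rise was not tested.

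By the pattern over the 6 arrays, measured as the root mean square distance between log2 values centred on each gene's mean, the 3 genes closest to Mdm2 among 8788 were Slc25a25 (0.06), Otub2 (0.08) and Olfr724 (0.09). Those closest to Gadd45a were LOC229665 (0.07), Otub2 (0.08) and Ptpn14 (0.09). The genes closest to Sesn2 were Cth (0.09), Creb5 (0.09) and Ppp1r15b (0.10), and to Trp53inp1 BC049730 (0.08), Pou4f1 (0.14) and Zfp37 (0.17). BC049730 was detected on no control array and passed the detection filter only through the Foxp1 arrays. Pou4f1 was detected on 1 control array, so the distances of both rest on dim control values. With 6 arrays in 2 groups such distances mostly follow the size of the group difference.

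The labelled striatal origin was checked against marker genes. Of 9 neuronal markers on the array, Map2, Nefm and Stmn2 were detected on every array and Syt1, Snap25, Nefl and Dcx on none. Tubb3 was detected on 2 Foxp1 and 0 control arrays, and Gap43 on 1 Foxp1 and 0 control arrays. Of 8 striatal projection neuron markers 5 were on none, among them Bcl11b, Drd1 and Tac1. Pde10a was on every array, Drd2 on 3 Foxp1 and 2 control arrays, and Ppp1r1b on 1 Foxp1 and 3 control arrays. Of 7 mesenchymal markers 5 were detected on every array, among them Vim, Col1a1 and S100a4, and Col1a2 and Thy1 on none. Of 8 microglia and macrophage markers Cd68 was on every array and the others were on none. Of 8 astrocyte markers Gfap, Aqp4, S100b and Gjb6 were on none, Slc1a3 on every array and 3 on some. Of 6 oligodendrocyte markers Mog, Mag, Olig1 and Olig2 were on none, Cnp on every array and Mbp on 1 control array.

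Summed normalized levels, on the linear scale with 1 probe a gene, were lower in Foxp1 cells for the neuronal list (2772 to 3385, against 3597 to 4329 in controls), and likewise for the striatal list (351 to 378, against 389 to 451) and the astrocyte list (370 to 463, against 467 to 677). Those of the oligodendrocyte, microglial and mesenchymal lists overlapped between groups, at 219 to 265, 225 to 256 and 32460 to 35820 in Foxp1 cells, against 237 to 277, 246 to 277 and 35110 to 36580 in controls. A sum is weighted to its brightest gene, such as Vim in the mesenchymal list and Stmn2 in the neuronal list. It also counts markers detected on no array, 5 of 8 in the striatal list. The 5 kept mesenchymal genes all had negative differences, 3 of them lower at an unadjusted p under 0.05 (10.2% of all kept genes). Among single markers Nefm rose (0.86 ± 0.14, limma adjusted p = 0.0238) while Stmn2 (-0.65 ± 0.12, 0.032) and Pdgfra (-0.61 ± 0.12, 0.0471, and 0.0524 with the replicate block) fell. The astrocyte marker Slc1a3 passed in the lower direction with the replicate block (-0.61, limma adjusted p = 0.0455) and did not without it (0.137). In such bulk samples fewer cells of a type and less RNA per cell cannot be told apart. The part of these marker shifts in the members' differences was not tested.

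Which members passed depended on single arrays. Without Foxp1 replicate 1 only Gadd45a passed and without Foxp1 replicate 2 only Trp53inp1, where all genes gave 29 and 28 calls. Without Foxp1 replicate 3 or control replicate 3 all 4 passed, and without control replicate 1 or 2 Gadd45a, Mdm2 and Trp53inp1 did. The size moved little over these fits, between 0.74 and 0.89 for the first Mdm2 probe, 1.10 and 1.34 for the brighter Trp53inp1 probe, 0.77 and 0.86 for the first Gadd45a probe, and 0.63 and 0.78 for Sesn2. Each such fit rests on 5 arrays, which by itself can end a call.

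**Figure D4:**
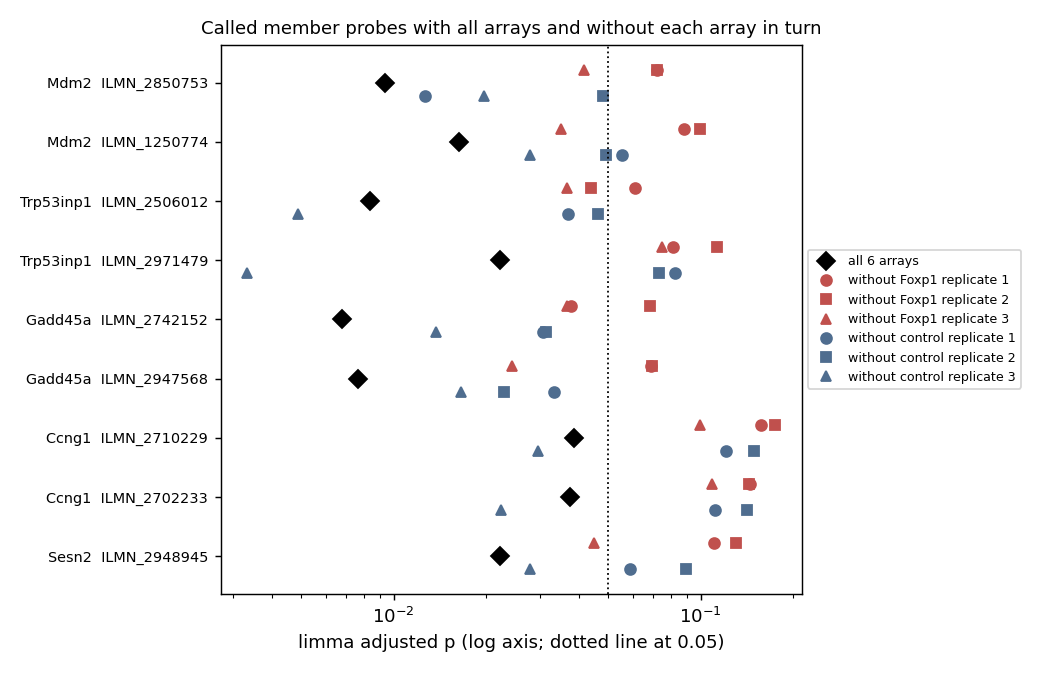
Benjamini-Hochberg adjusted p from limma (log axis) for the 9 member probes that passed, with all 6 arrays (diamond) and without each Foxp1 array (red) or control array (blue) in turn, the symbol giving the replicate left out. The dotted line is the threshold of 0.05, and leaving out Foxp1 replicate 1 or 2 moves most probes to its right.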

How the data were processed

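Per the file headers, the deposited unnormalized table gives each of 25697 probes an intensity (linear) and a detection p-value on 6 arrays. GenomeStudio is the tool in the submitters' processing notes (version not given). Between 29.5% and 31.6% of the deposited intensities on each array were below 0, so a background had been subtracted by the authors. The authors' processed values form the other deposited table and were read as log2 from their range and their match to the log2 intensities, with normalization not given in the sources used here. It served as an alternative only.

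Here intensities were corrected with limma 3.58.1 (R 4.3.3) neqc (normal-exponential background from the detection p-values, offset 16), quantile-normalized and log2-transformed, which pulls differences of dim probes towards 0. Probes detected (p under 0.05) on at least 3 arrays were kept, 12136 in all. Groups came from the titles. They were compared with lmFit and eBayes (2-sided, Benjamini-Hochberg over kept probes, threshold 0.05). A gene stood for its kept probe with the highest mean. Contrasts between genes or probes used exact 2-sided permutation of arrays. The number of arrays limits the precision. Symbols were updated through RefSeq synonyms (GRCm38.p6). The arrays detected 11789 to 12342 probes each. The fit was tested on simulated data.

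The members, the lists, the tests and the alternatives were chosen with earlier results of these data known, and the search for decamer pairs was added after the files were seen. Named genes were the members, from each list up to 3 passing genes of smallest p (or, if none passed, the 1 of smallest p), the relatives used in pairs, Foxp1 and the 3 genes nearest in pattern to each called member. Replicate numbers in the titles may pair the arrays, as deviations from the group means correlated at 0.257, 0.115 and 0.401 between same-numbered arrays. Arrays of different number were not compared in this way, and the labels state no pairing. The main fit and the permutations treated the arrays as unpaired. A fit with the replicate number as a block is an alternative. Others changed the background correction, offset, scaling, detection filter, array weights, variance trend, probe rule and arrays used.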

Additional observations from a re-analysis of the deposited data

How the results depend on the processing

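Over 15 or 16 alternatives each, the called member probes kept their direction. With the replicate block 4 member genes and 9 member probes rose, as without it, and the block changed no call of a member. The number of called member genes ran from 1 to 4 without 1 array in turn, that of member probes from 1 to 9 and that of all genes from 28 to 265. Leaving out an array also leaves fewer samples. All genes gave 753 calls with array weights and 385 with a variance trend, against 240, and the brightest Ccng1 probe passed under both (limma adjusted p = 0.0342 and 0.0405). So did Sirt1 (0.01935 and 0.0347), and Gadd45b passed with the trend (0.0402). The number of member genes was 3 with the strict detection filter (p under 0.01 on all 6 arrays), which dropped Sesn2, and 5 when the kept probes of each gene were averaged, which added Ccng1. Under no alternative did a member pass in the lower direction.

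Differences near 0 changed sign without passing the test. With array weights those of Trp53 and Btg1 were -0.0108 and -0.0098. Without 1 array in turn Trp53 ran from -0.1202 to 0.1304 and Btg1 from -0.0514 to 0.0658, and Perp from -0.1514 to 0.2654 over the 3 such fits in which it was kept. The cause was not tested. Dim probes (Perp, the dim Mdm2 and Trp53inp1 probes, the dimmer Sesn1 and Sesn2 probes, and the only Btg2 probe) are limited by signal over background.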
